A study of Rattus norvegicus with 4 samples.

Results

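The genes described here are those of the rat mitochondrial chromosome, taken as every gene that the deposited annotation places on chromosome MT. They were 37 of the 34773 genes in the count table and comprised 13 protein-coding genes, 2 rRNA genes and 22 tRNA genes. RNA-seq libraries of rat embryonic stem cells (ESCs) were compared between 1 culture of wild-type cells (WT) and 3 Thop1-knockout subclones (Thop1-KO #1, #2 and #3). Thop1 encodes thimet oligopeptidase, a zinc metallopeptidase that cleaves short peptides. Per the study's methods, the control was DA-5-3, a rat ESC line used there as the diploid control, which carried a GFP reporter at Rex1. The knockout subclones were made from these DA-5-3 cells with Cas9 and a guide to Thop1, selected with puromycin and picked as single colonies. Both groups shared the Rex1-GFP allele, growth on feeder cells, and 2i/LIF medium (PD0325901, CHIR99021 and human LIF). Passage number, age of the cultures and date of collection were not given for any group, and the series text calls the cells haploid, whereas the methods describe DA-5-3 as diploid.

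Mitochondrial DNA is a small circular genome present in many copies per cell. It encodes core subunits of respiratory complexes I, III, IV and V, and the rRNAs and tRNAs with which mitochondria translate them, whereas all other mitochondrial proteins are encoded in the nucleus. Both strands are transcribed by POLRMT with TFAM and TFB2M into long precursors, from which tRNAs are cut out at either end by RNase P and ELAC2. Most of the mRNAs and the rRNAs released in this way receive short poly(A) tails, and LRPPRC and SLIRP hold mRNAs. The released RNAs are turned over at different rates, so that genes of a single precursor reach different levels. Naive ESCs are known to draw on both glycolysis and respiration.

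Library totals were between 15405499 and 17936544 counts, with the lowest in WT. Pairs of subclones differed by a chi-square of 18.2 to 53.3 per degree of freedom, and each subclone differed from WT by 101 to 149, so no library was a duplicate of another. Thop1 itself measured 110, 92.5 and 149 TMM-normalised CPM (counts scaled to a common library size) in subclones #1, #2 and #3 and 370 CPM in WT (log2 fold change -1.66, SE 0.29, edgeR adjusted p 0.0187). Of 7 ESC markers, 6 were in the table analysed and all had counts, and their summed level was 5363 to 6478 CPM in the subclones and 5682 CPM in WT. Most of that sum was Pou5f1, at 4842, 3889 and 4776 CPM in the subclones and 4794 CPM in WT. Within that list, Esrrb was at 330, 286 and 328 CPM in the subclones and 15.9 CPM in WT. Tfcp2l1 was at 231, 254 and 279 CPM and 34.5 CPM, so the WT culture stood apart in these 2 naive-state factors. Sox2 was at 594, 370 and 668 CPM and 305 CPM in WT. For Nanog (334, 494 and 384 CPM, and 468 CPM in WT) and Klf4 (40.9, 70.0 and 42.6 CPM, and 64.2 CPM in WT), WT lay within the subclones. Of 10 feeder fibroblast markers, 9 were in the table, Dcn, Thy1 and Lum were at 0 in every library, and the summed level was 325 to 656 CPM in the subclones and 201 CPM in WT. Most of this sum was Col1a1, at 304, 555 and 374 CPM in the subclones and 190 CPM in WT. The part of these marker differences in the results below was not tested, and in bulk RNA fewer mitochondrial genomes per cell and less RNA from each cannot be told apart. The libraries were made from poly(A) RNA. Genes of snRNA, snoRNA and scaRNA, which lack such tails, summed to 168 to 191 CPM in the subclones and 173 CPM in WT, histone genes to 21.9 to 31.7 and 31.2 CPM, and nuclear rRNA genes to 6.68 to 8.47 and 46.2 CPM. WT thus stood apart in the nuclear rRNA genes. Counts of mitochondrial mRNAs, too, measure only RNA that passed the poly(A) selection, and whether that selection differed between libraries was not tested.

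The mitochondrial chromosome gave a smaller share of the counts in all 3 knockout subclones than in WT. It took 1.32%, 1.31% and 1.31% of all counts in subclones #1, #2 and #3, with a mean of 1.31% ± 0.00465 (SD, n = 3), and 2.04% in the WT library (95% Wilson interval 2.04% to 2.05%, counting error only). The subclones thus lay close together and below WT, at 0.643 of its share. With 1 WT library against 3, an exact one-sided permutation test cannot give a p under 0.25, so no test of the share is given. The difference sat in the counts of the protein-coding genes. Protein-coding genes took 1.24%, 1.28% and 1.27% of counts in the subclones and 1.99% in WT. rRNA genes took 0.0716%, 0.0256% and 0.0374% in the subclones and 0.0414% in WT, and tRNA genes took 0.00945%, 0.00534% and 0.00672% and 0.00783%, so for both classes WT lay within the range of the subclones. A single gene, Mt-co1, also lay within that range with 0.786%, 0.643% and 0.678% of counts in the subclones and 0.740% in WT. Without Mt-co1, the other 12 protein-coding genes took 0.452%, 0.637% and 0.589% in the subclones and 1.25% in WT.

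**Figure D1:**
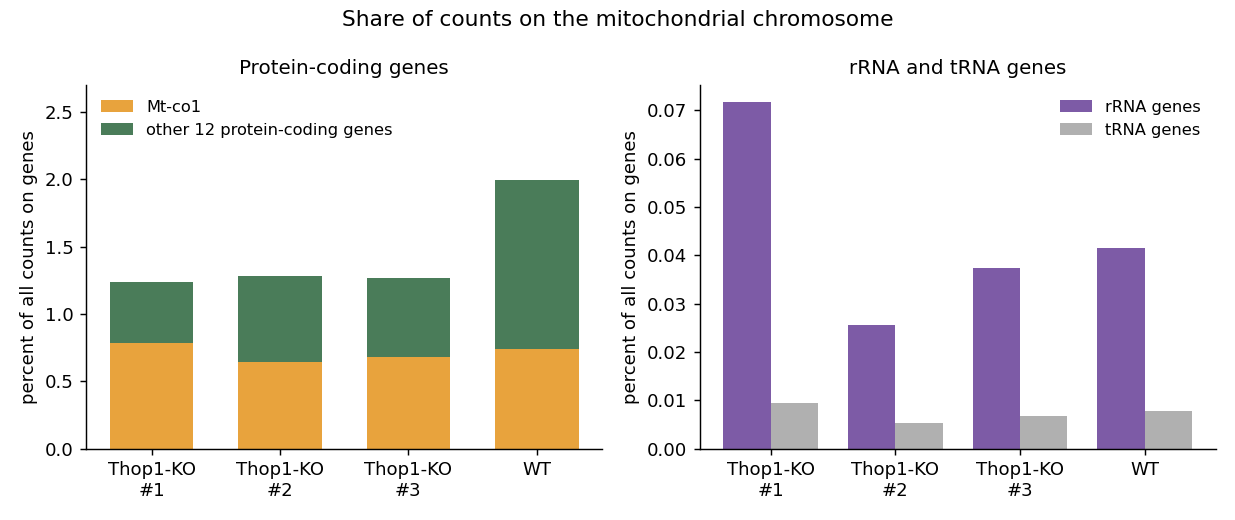
Percent of all counts on genes that fell on mitochondrial genes in each of the 4 libraries, as bars from 0, with protein-coding genes on the left (Mt-co1 and the other 12 genes stacked) and rRNA and tRNA genes on the right on a smaller scale. The Mt-co1 segment was between 0.643% and 0.786% in every library, whereas the segment of the other 12 genes was 1.25% in WT and at most 0.637% in a subclone, and the rRNA bar of subclone #1 (0.0716%) was the tallest.

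Each gene was compared between the 3 subclones and WT with edgeR's quasi-likelihood test on counts, with Benjamini-Hochberg adjustment over all 15028 genes tested, and called at an adjusted p under 0.05. Log2 fold changes are Thop1-KO over WT. With a single WT library, the spread came from the 3 subclones, so a difference of the WT culture or library from the others cannot be told apart from a difference of genotype. By this test 9 of the 13 protein-coding genes were lower in Thop1-KO and 0 were higher, beside 5.17% of all genes tested that were called lower and 13.8% called in either direction. The median log2 fold change of the 13 genes was -1.44, beside 0.06 for all genes tested. WT was above all 3 subclones in 12 of the 13, beside 37.6% of all genes. All 13 fitted log2 fold changes were below 0, except that Mt-nd1, Mt-cyb and Mt-co1 came out above 0 (0.0026, 0.05 and 0.59) when the libraries were scaled to the mitochondrial protein-coding counts themselves. DESeq2 called 10 of the 13 lower, beside 7.56% of the genes to which it gave an adjusted p, and limma called 6 on log2(FPKM + 1) and 2 on log2(FPKM + 0.1). The count of calls depended on which subclones were used: without subclone #3 it was 4, without #2 it was 12 and without #1 it was 10, while calls over all genes went from 2072 to 418, 5572 and 1937.

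Complex I, NADH dehydrogenase, passes electrons from NADH to ubiquinone and has 7 mitochondrially encoded subunits that form its membrane arm. All 7 were highest in WT, and 5 were called lower in Thop1-KO, with a median log2 fold change of -1.44. Mt-nd1 (positions 2740 to 3694) was at 1412, 1377 and 1403 CPM in the subclones and 2312 CPM in WT. The subclones differed from each other by far less than from WT, and the gene had the smallest difference among those called (log2 fold change -0.73, SE 0.18, edgeR adjusted p 0.0433). Mt-nd2 (3904 to 4942) was at 293, 381 and 374 CPM in the subclones and 947 CPM in WT. It stood at 30.9% to 40.2% of the WT level (log2 fold change -1.44, SE 0.23, edgeR adjusted p 0.0145). Mt-nd3 (9451 to 9798) was at 60.8, 118 and 86.1 CPM and 389 CPM in WT. Its fall was the largest within complex I, although the subclones ranged from 15.6% to 30.3% of WT (log2 fold change -2.14, SE 0.34, edgeR adjusted p 0.0148). Without subclone #3, Mt-nd1 and Mt-nd2 had nearly the same log2 fold changes (-0.73 and -1.49) but edgeR adjusted p values of 0.212 and 0.0539, and Mt-nd1 also missed the threshold without #1 (0.0553).

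Mt-nd4l and Mt-nd4 lie on a single bicistronic mRNA and overlap by 7 bases. Mt-nd4l (9870 to 10166) was at 28.4, 57.4 and 45.7 CPM in the subclones and 116 CPM in WT, and Mt-nd4 (10160 to 11537) was at 18.1, 39.3 and 35.0 CPM and 90.0 CPM. Neither group overlapped WT, but the subclones spread widely, with #1 lowest for both, and neither gene was called (log2 fold changes -1.41, SE 0.37, and -1.55, SE 0.41, with edgeR adjusted p of 0.0512 and 0.0517). Their FPKM ratio, a level per length, was 7.28, 6.77 and 6.07 in the subclones and 5.999 in WT. WT was thus lowest but close to #3, before a further locus described below is taken into account. Mt-nd5 (11736 to 13565), the longest of the 13 genes, was at 226, 310 and 313 CPM and 657 CPM in WT (log2 fold change -1.22, SE 0.25, edgeR adjusted p 0.0278). Mt-nd6 (13543 to 14061) is the only protein-coding gene on the opposite strand and overlaps Mt-nd5 by 23 bases. It was at 28.2, 42.2 and 41.1 CPM in the subclones and 122 CPM in WT (log2 fold change -1.71, SE 0.29, edgeR adjusted p 0.0176). Genes annotated on both strands were thus called lower. How reads were assigned by strand is not given in the sources used here, so reads of the 23 shared bases could count for either gene. Counts over the rest of Mt-nd6 could likewise come from RNA of the other strand, so they do not show that RNA of both strands was lower. Without #3, the edgeR adjusted p was 0.0870 for Mt-nd5 and 0.0578 for Mt-nd6. Mt-nd4l and Mt-nd4 passed the threshold without #1 (0.0394 and 0.0290) and without #2 (0.000765 and 0.00137).

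Mt-nd4 carries a further uncertainty. The authors added a transcribed locus on chromosome 20 (19483978 to 19485844) that they described as NADH-ubiquinone oxidoreductase chain 4, the protein of Mt-nd4, and a near-identical copy can take reads from the mitochondrial gene. That locus held 26, 55 and 29 counts in the subclones and 492 counts in WT, and was itself called lower (log2 fold change -3.98, SE 0.44, edgeR adjusted p 0.00705). With its counts added, Mt-nd4 came to 19.7, 42.4 and 36.6 CPM in the subclones and 123 CPM in WT, which left WT highest and the order of the subclones as before. Its counts rose from 304, 695 and 628 to 330, 750 and 657 in the subclones, and from 1338 to 1830 in WT. The ratio of Mt-nd4l to Mt-nd4 given above leaves these counts out. Adding them would lower it most in WT and set WT further apart from the subclones.

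Complex III contains cytochrome b, encoded by Mt-cyb (14136 to 15278). It was at 909, 1188 and 1220 CPM in the subclones and 1777 CPM in WT. The WT value lay above all 3, but the difference did not pass the test (log2 fold change -0.68, SE 0.23, edgeR adjusted p 0.0908). It passed when #2 was left out (edgeR adjusted p 0.0137).

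Complex IV, cytochrome c oxidase, has 3 mitochondrially encoded core subunits, of which 2 were called lower. Mt-co2 (7006 to 7689), which carries the first copper centre, was at 538, 757 and 720 CPM in the subclones and 2334 CPM in WT. No subclone exceeded 32.4% of WT (log2 fold change -1.80, SE 0.23, edgeR adjusted p 0.00903). Mt-co3 (8599 to 9382) was at 662, 1066 and 942 CPM and 2252 CPM in WT (log2 fold change -1.34, SE 0.27, edgeR adjusted p 0.0275). Mt-co3 did not pass without #3 (edgeR adjusted p 0.0779). Mt-co1 (5323 to 6867), the catalytic subunit that reduces oxygen, was at 8137, 6010 and 6765 CPM in the subclones and 7675 CPM in WT. WT lay between subclone #1 and the other subclones, and the difference was smaller than its error (log2 fold change -0.14, SE 0.21, edgeR adjusted p 0.674). Loci described by the authors as cytochrome c oxidase subunit 1 also lay on chromosome 8, on the plus strand (181227 to 182329) with 75, 40 and 37 counts in the subclones and 54 in WT, and on the minus strand (181064 to 182329) with 6, 10 and 5 counts and 0. These are few beside the 106254 to 136471 counts of Mt-co1, although reads shared with such copies remain uncertain.

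Complex V, the ATP synthase, has 2 mitochondrially encoded subunits of its membrane part, and both were called lower. Mt-atp6 (7919 to 8599), whose protein forms the proton channel, was at 507, 618 and 693 CPM in the subclones and 1962 CPM in WT (log2 fold change -1.69, SE 0.22, edgeR adjusted p 0.00933). Mt-atp8 (7758 to 7961), the shortest of the 13 at 204 bases, was at 3.82, 4.98 and 4.40 CPM and 39.4 CPM in WT. It had the largest fall of the protein-coding genes, and every subclone was at 12.6% of WT or less (log2 fold change -3.16, SE 0.31, edgeR adjusted p 0.00678). These genes share an mRNA and 43 bases, yet their FPKM ratio was 39.8, 37.2 and 47.2 in the subclones and 14.9 in WT. The count of Mt-atp8 is low and 43 of its 204 bases are shared with Mt-atp6, so its level is uncertain.

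**Figure D2:**
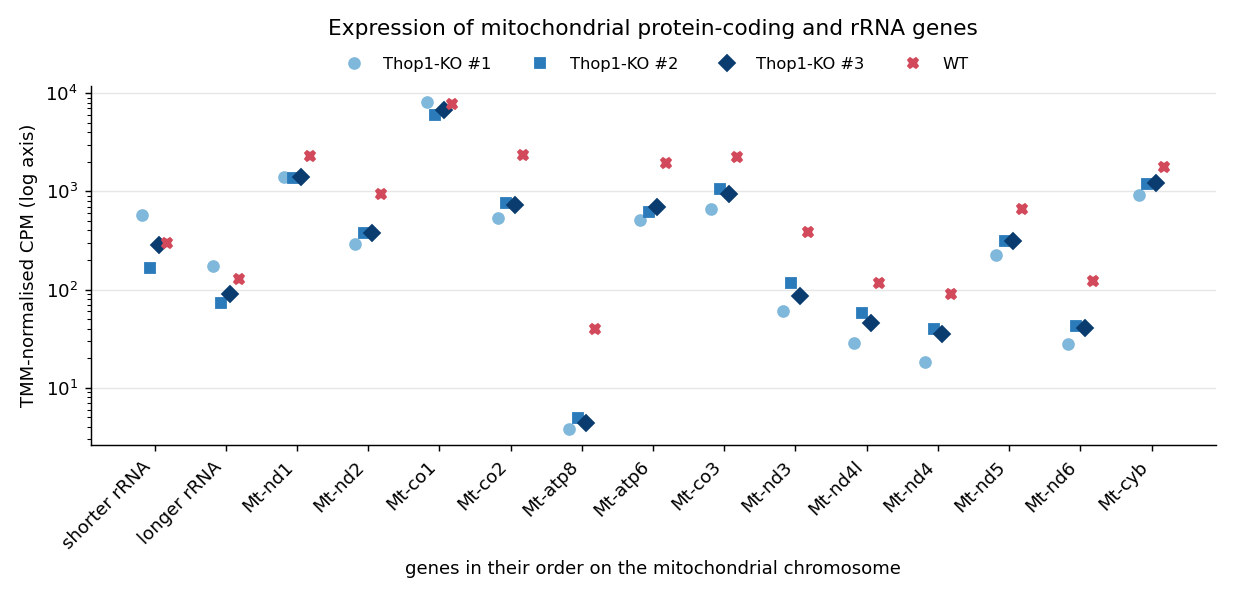
TMM-normalised CPM on a log axis of the 2 rRNA genes and the 13 protein-coding genes in their order along the mitochondrial chromosome, with 1 point per library and no averaging. The WT cross lies above all 3 subclones for 12 of the 13 protein-coding genes and within the subclones for Mt-co1 and both rRNA genes, and subclone #1 is the lowest subclone for 11 of the 13.

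The composition of the mRNAs differed along with their sum. Mt-co1 made up 63.5%, 50.2% and 53.5% of the mitochondrial protein-coding counts in the subclones and 37.1% in WT. Per length, Mt-co1 had the highest FPKM of the 13 genes in all 4 libraries. Mt-co2 came next in WT, with an FPKM ratio of Mt-co1 to Mt-co2 of 1.46, whereas in the subclones this ratio was 6.69, 3.51 and 4.16 and Mt-nd1 took the place after Mt-co1. Mt-nd1 ranked 5 in WT, and Mt-co2 ranked 4 or 5 in the subclones. At the low end, Mt-nd4 and Mt-atp8 held the last 2 ranks in every library, and Mt-nd6 ranked 11 in all of them. As a percent of the protein-coding counts, WT was above all subclones for 10 genes, within their range for Mt-nd1 (11.01%, 11.51% and 11.10% against 11.19%) and Mt-cyb (7.09%, 9.93% and 9.65% against 8.60%), and below them for Mt-co1. The subclones also differed among themselves, since #1 was the lowest of the 3 for 11 protein-coding genes and the highest for Mt-co1.

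The rRNAs of the small and the large subunit of the mitochondrial ribosome lie ahead of the mRNAs on the same strand, and neither differed from WT beyond the spread of the subclones. The shorter rRNA gene (AY172581.9, 958 bases, 68 to 1025) was at 568, 167 and 284 CPM in the subclones and 301 CPM in WT (log2 fold change 0.17, SE 0.60, edgeR adjusted p 0.859). The longer rRNA gene (AY172581.24, 1571 bases, 1094 to 2664) was at 174, 72.2 and 89.3 CPM and 128 CPM in WT (log2 fold change -0.20, SE 0.48, edgeR adjusted p 0.796). For both, subclone #1 was the highest library, WT was next and #2 was the lowest. Mt-co1 and the tRNA gene AY172581.18 followed the same order of libraries, making 4 genes in all. edgeR called 0 of the 2 rRNA genes, 0 had an unadjusted p under 0.05, and DESeq2 and limma called 0 as well. The sign of the shorter gene's log2 fold change turned to -0.44 without subclone #1, and that of the longer gene to 0.04 without #2.

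Set against the mRNAs, rRNA counts per 100 protein-coding counts were 5.79, 2.001 and 2.95 in the subclones and 2.08 in WT. By counts, #1 stood farthest from WT, and #2 was below it. A further ratio used reads per base of each gene, averaged over the genes of a class with equal weight. In that form, rRNA per 100 protein-coding was 42.8, 13.1 and 20.4 in the subclones and 12.03 in WT. By that measure WT was below all 3 subclones, with #2 close to it. The place of WT thus depended on how the genes were weighted, and the difference was not tested. The FPKM ratio of the shorter to the longer rRNA was 5.37, 3.80 and 5.21 in the subclones and 3.86 in WT. Because the libraries were selected for poly(A), these rRNA counts measure the RNA that passed that selection and not the amount of rRNA in the cells.

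**Figure D3:**
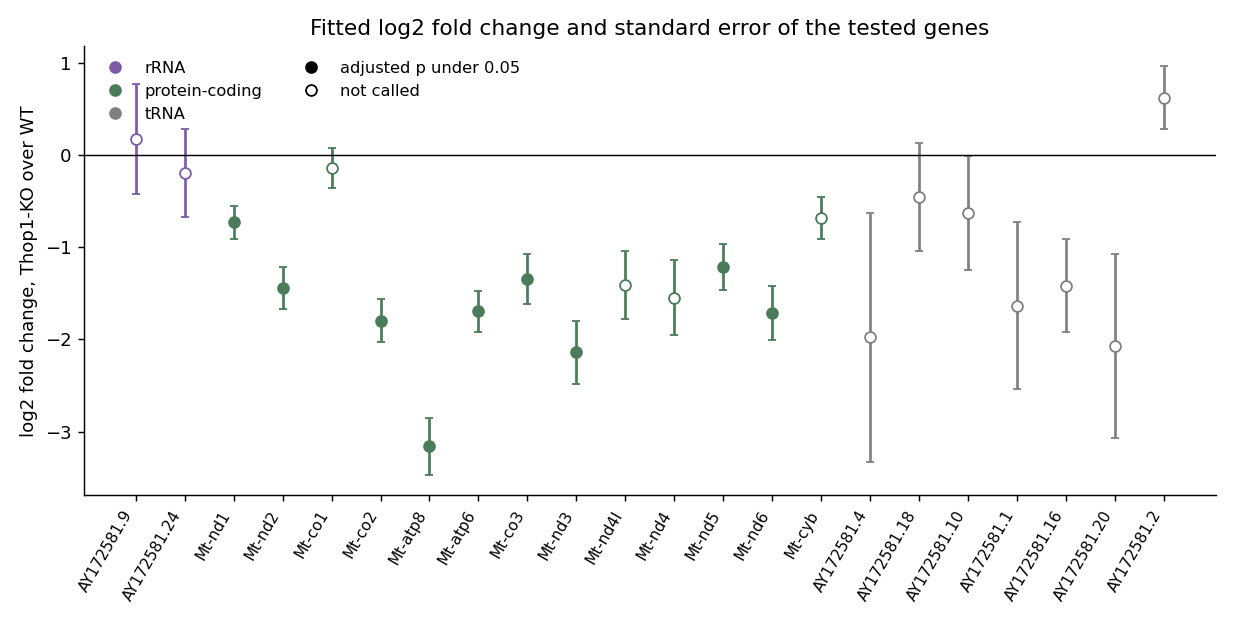
Fitted log2 fold change, Thop1-KO over WT, with its standard error (bars) for the tested mitochondrial genes, as filled points where the edgeR adjusted p was under 0.05, with 2 tRNA genes left out because one of the groups held at most 1 count. All protein-coding points lie below 0, from -3.16 for Mt-atp8 to -0.14 for Mt-co1, while the rRNA genes lie at 0.17 and -0.20 and no tRNA point shown is filled.

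The 22 tRNA genes are 60 to 75 bases long and held 1642, 883 and 1205 counts in the subclones and 1207 counts in WT. As with the rRNAs, these counts measure the RNA that passed poly(A) selection and not the amount of tRNA in the cells. The names of the tRNA genes in the deposited annotation do not give the amino acid. Of the 22, 9 passed the filter on low counts and 13 did not. Among those 13, 3 had 0 counts in all libraries and the others had at most 10 counts in any library. Most tRNA counts sat in AY172581.18 (minus strand, 5081 to 5152) and AY172581.2 (minus strand, 15348 to 15415), which together held 92.6%, 87.1% and 90.2% of the tRNA counts in the subclones and 81.9% in WT. AY172581.18 took 963 counts in #1, 333 in #2, 444 in #3 and 687 in WT, or 57.4, 18.8 and 24.7 CPM and 46.2 CPM (log2 fold change -0.46, edgeR adjusted p 0.605). AY172581.2 had 557, 436 and 643 counts and 301 in WT, or 33.2, 24.7 and 35.8 CPM and 20.3 CPM (log2 fold change 0.62, edgeR adjusted p 0.236). All subclones were thus above WT for AY172581.2, without passing the test.

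AY172581.5, between Mt-co3 and Mt-nd3 (9383 to 9450), was the only tRNA gene called, with 0, 0 and 1 counts in the subclones and 28 counts in WT (edgeR adjusted p 0.0283). That is 11.1% of the tRNA genes tested, beside 5.17% of all genes called lower and 13.8% called in either direction. DESeq2 called 0 of the 5 tRNA genes to which it gave an adjusted p. AY172581.5 passed the filter on low counts only through its WT counts, so its high WT level was a condition of its being tested. Over all subclone counts, WT was 98.8-fold higher per effective library size, with an exact interval of 16.3 to 4038 that covers counting error only. The genes on either side of it, Mt-co3 and Mt-nd3, were also called lower. The opposite pattern was seen at AY172581.7 (minus strand, 5256 to 5321), with 14 counts in #1, 19 in #2, 15 in #3 and 0 in WT, at least 4.53-fold higher in the subclones with 3 counts as the floor over the WT library. It fell just short of the threshold (edgeR adjusted p 0.0506). Without #3, AY172581.5 missed the threshold (edgeR adjusted p 0.0703), and without #2, AY172581.7 passed it (0.0305). The other tested tRNA genes had few counts and were not called. AY172581.16 took 22 counts in #1, 26 in #2, 30 in #3 and 59 in WT. In the same order of libraries, AY172581.10 had 64, 26, 41 and 58 counts. AY172581.4 had 0, 10, 6 and 18, AY172581.1 had 5, 5, 8 and 16, and AY172581.20 had 3, 8, 3 and 17, so for these genes WT was above every subclone. For these tRNA genes the edgeR adjusted p values lay between 0.105 for AY172581.16 and 0.498 for AY172581.10. By CPM, WT was above all subclones in 6 of the 9 tested tRNA genes, beside 37.6% of all genes, and below them in 2. Among the 6, WT was above only narrowly for AY172581.10 (3.90 CPM in WT and 3.82 CPM in #1), whose counts before scaling were higher in #1. AY172581.5, AY172581.1 and AY172581.20 reached the filter's minimum count of 10 in WT only, so WT being above was built into their selection. In the same way, AY172581.7 reached it in the subclones only. With at least 10 counts required in every library, 4 tRNA genes were tested and 0 were called.

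Gene length moved with the fold changes of the mitochondrial genes. Across the 13 protein-coding genes, Spearman's rho between length and log2 fold change was 0.72, a description across genes of shared libraries that are not independent replicates. By comparison, rho was 0.35 with the WT FPKM and 0.06 with the start position over the 12 plus-strand genes. Nuclear protein-coding genes showed a length trend of the same sign. Their median log2 fold change was -0.53 for 435 genes under 500 bases, -0.33 for 1024 genes from 500 to under 1000 bases, -0.04 for 3753 genes from 1000 to under 2000 bases, 0.22 for those from 2000 to under 4000 bases, and 0.41 for longer ones. In the first 3 of these classes the mitochondrial medians were -2.14 (3 genes), -1.69 (5 genes) and -1.22 (5 genes), below the nuclear medians in each. When the nuclear length trend was taken out with an offset, 7 of the 13 genes were called lower, beside 964 of all 15028 genes tested. Mt-nd1 and Mt-co3 were no longer among the 7. The median log2 fold change of the 13 was then -1.29, beside -0.09 for all genes. The source of the length trend was not tested.

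**Figure D4:**
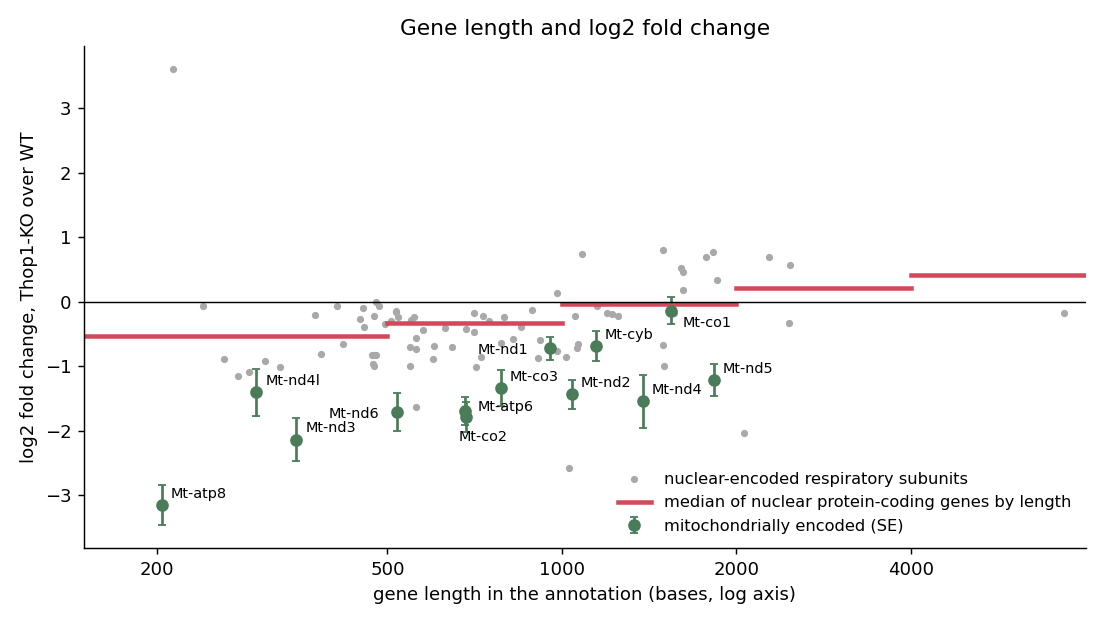
Log2 fold change, Thop1-KO over WT, against gene length in bases (log axis) for the 13 mitochondrial protein-coding genes (green, with standard error) and the tested nuclear-encoded respiratory subunits (grey), with the median of nuclear protein-coding genes in each length class as red lines. The green points lie below the red line at their length in all 13 cases, by least for Mt-co1, and the red lines climb from -0.53 to 0.41 with length.

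The nuclear genes that copy, transcribe and process mitochondrial DNA and RNA were examined as fixed lists of 60 genes, of which 57 were in the table analysed and 55 were tested. Of these, 6 were lower and 2 were higher in Thop1-KO, with a median log2 fold change of -0.29. The 8 genes called are 14.5% of those tested, close to the 13.8% of all genes, so the lists as a whole were called at about the rate of all genes. By direction, 10.9% were lower and 3.64% higher, beside 5.17% and 8.62% of all genes. In the list for transcription and replication, 2 of 18 were called (11.1%), both lower. Tfb2m, the factor that opens the mitochondrial promoters, was at 4.23, 5.77 and 4.34 CPM in the subclones and 15.3 CPM in WT (log2 fold change -1.68, SE 0.36, edgeR adjusted p 0.0310). Mterf3, a factor of the mitochondrial termination factor family, was at 4.59, 4.47 and 4.45 CPM and 14.5 CPM in WT (log2 fold change -1.68, SE 0.34, edgeR adjusted p 0.0270). The mitochondrial RNA polymerase gene Polrmt was at 46.6, 39.9 and 54.3 CPM in the subclones and 25.7 CPM in WT, with WT lowest, and was not called (log2 fold change 0.87, edgeR adjusted p 0.103). Tfam, which packages mitochondrial DNA and activates its promoters, was at 107, 116 and 92.8 CPM and 134 CPM in WT, and was not called (log2 fold change -0.35, edgeR adjusted p 0.348). Without #3 neither Tfb2m nor Mterf3 passed (edgeR adjusted p 0.151 and 0.137), and without #2 Polrmt did (0.0141).

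In the list for RNA processing and stability, 3 of 20 were lower and 1 was higher, beside 5.17% and 8.62% of all genes, a difference of few genes that was not tested. Slirp, the partner of Lrpprc in keeping mitochondrial mRNAs, was at 24.3, 27.3 and 16.1 CPM in the subclones and 69.8 CPM in WT (log2 fold change -1.63, SE 0.33, edgeR adjusted p 0.0278). Lrpprc was at 97.9, 130 and 143 CPM and 223 CPM in WT and did not pass the test (log2 fold change -0.85, SE 0.27, edgeR adjusted p 0.0803). WT was the highest library for both partners. Rexo2, an exonuclease that clears short RNA fragments, was at 34.2, 56.3 and 36.2 CPM and 106 CPM in WT (log2 fold change -1.32, SE 0.33, edgeR adjusted p 0.0446). The 3 proteins of mitochondrial RNase P, which cuts the 5′ ends of tRNAs, gave 1 gene called lower, 1 called higher and 1 not called. Trmt10c was at 12.4, 14.6 and 13.8 CPM in the subclones and 31.3 CPM in WT (log2 fold change -1.20, SE 0.29, edgeR adjusted p 0.0422). Hsd17b10 was at 48.7, 39.5 and 38.1 CPM and 5.52 CPM in WT (log2 fold change 2.93, SE 0.36, edgeR adjusted p 0.00803). Prorp, named here after its values were seen, was at 7.16, 8.71 and 6.57 CPM and 17.0 CPM in WT, and was not called (log2 fold change -1.18, edgeR adjusted p 0.0644). Hsd17b10 was thus higher than WT in all subclones, and Trmt10c and Prorp lower in all of them. Without #3 the edgeR adjusted p was 0.0986 for Slirp, 0.157 for Rexo2 and 0.190 for Trmt10c, and Rexo2 and Trmt10c also missed the threshold without #1 (0.0553 and 0.0712) and with scaling by library totals (0.0621 and 0.0588), and Rexo2 did with the gene length offset (0.0552), whereas Hsd17b10 passed without any of the 3. Lrpprc passed without #2 (0.0117).

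Of 10 tested genes for modification of mitochondrial rRNA and tRNA, 1 was called. Trnt1, which adds the CCA end to tRNAs, was at 7.16, 8.88 and 5.45 CPM in the subclones and 30.9 CPM in WT (log2 fold change -2.11, SE 0.36, edgeR adjusted p 0.0172). Among 7 tested regulators of mitochondrial biogenesis 1 was called (14.3%), close to the 13.8% of all genes. It was the nuclear receptor gene Esrra, which was higher, at 221, 122 and 173 CPM in the subclones and 51.0 CPM in WT (log2 fold change 1.76, SE 0.39, edgeR adjusted p 0.0343). The coactivator gene Ppargc1b was at 5.55, 3.73 and 6.12 CPM and 3.16 CPM in WT, and was not called (log2 fold change 0.70, edgeR adjusted p 0.347). These counts moved with the subclones used: over all 4 lists 1 gene was called without #3 and 22 without #2. Calls over all genes moved the same way, from 2072 to 418 without #3 and to 5572 without #2. Trnt1 and Esrra had edgeR adjusted p values of 0.0738 and 0.0909 without #3. Esrra also missed the threshold with the gene length offset (edgeR adjusted p 0.0503) and with limma on log2(FPKM + 1) and log2(FPKM + 0.1) (limma adjusted p 0.0514 and 0.0849). With that offset, 10 of the 55 listed genes tested were lower and 1 was higher, beside 964 and 1071 of all 15028 genes tested. Scaled to the mitochondrial protein-coding counts, 1 of the listed genes was lower and 10 were higher, beside 232 and 4122 of all 15028 genes.

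**Figure D5:**
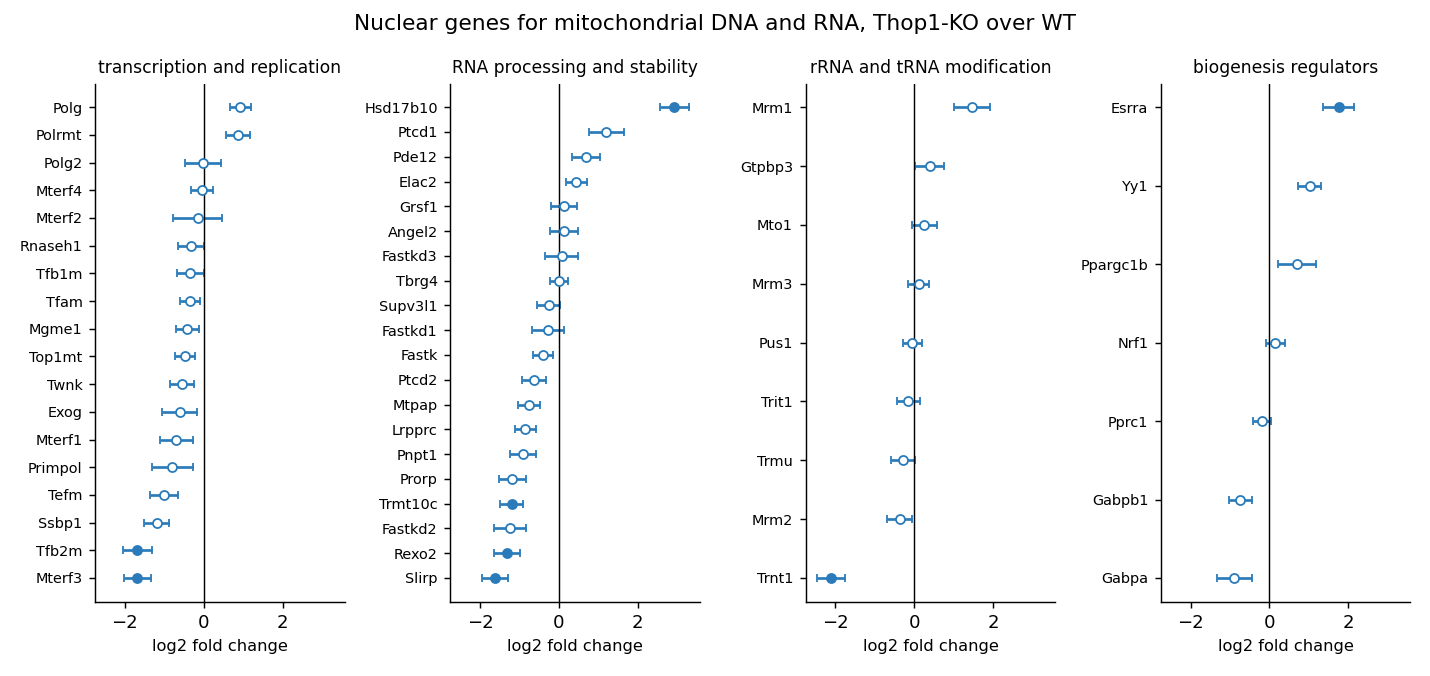
Log2 fold change, Thop1-KO over WT, with its standard error (bars), for the tested nuclear genes in 4 lists, sorted by value within each list and filled where the edgeR adjusted p was under 0.05; Nsun3, at 0 in WT, is left out. Slirp, Rexo2, Trmt10c, Tfb2m, Mterf3 and Trnt1 are the filled points below 0, and Hsd17b10 and Esrra are those above.

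Nuclear-encoded subunits of the same complexes were set beside the mitochondrial ones. Of 83 such genes, 80 were tested, 8 were lower and 0 were higher in Thop1-KO, and their median log2 fold change was -0.36, against -1.44 for the mitochondrially encoded subunits. Over all genes, 5.17% were called lower and 8.62% higher. Of the 80, however, 55 were under 1000 bases long, and among all nuclear protein-coding genes 10.8% of those under 500 bases and 10.4% of those from 500 to under 1000 bases were called lower, with medians of -0.53 and -0.33. The share and the median of the nuclear subunits were thus near those of nuclear genes of their length. With the gene length offset 4 of the 80 were called, all lower, beside 964 of all 15028 genes called lower. By complex, 2 of 35 nuclear subunits were lower in complex I (median -0.43), 1 of 10 in complex III (median -0.24), 2 of 14 in complex IV (median -0.31) and 3 of 17 in complex V (median -0.58). Complex II, which has no mitochondrially encoded subunit, had 0 of 4 called (median 0.03). In the same order, the mitochondrially encoded subunits called lower were 5 of 7, 0 of 1, 2 of 3 and 2 of 2. No test of the difference between the sets was made.

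Among the nuclear subunits called, Uqcrb of complex III had the largest difference, at 9.12, 7.86 and 3.95 CPM in the subclones and 41.9 CPM in WT (log2 fold change -2.58, SE 0.44, edgeR adjusted p 0.0181). The symbol stands in 2 rows of the table, this one on chromosome 7, so reads may be divided between copies. The row on chromosome 1 was at 15.6, 18.8 and 16.8 CPM in the subclones and 30.4 CPM in WT. It was not called (log2 fold change -0.83, SE 0.29, edgeR adjusted p 0.101), so the rank of Uqcrb rests on 1 of its 2 rows. Atp5mc1, for the rotating ring of ATP synthase, was at 154, 189 and 122 CPM and 480 CPM in WT (log2 fold change -1.63, SE 0.27, edgeR adjusted p 0.0164). The others named by rule showed smaller differences. Ndufb3 of complex I had a log2 fold change of -1.01, Cox7c and Cox5a of complex IV had -0.99 and -0.89, and Atp5me of ATP synthase had -1.09, with edgeR adjusted p values of 0.0377 to 0.0431. WT was the highest library for each of these. Without subclone #3, 1 nuclear subunit was called in place of 8, and without #2, 31 were lower and 7 higher. Over all genes, 418 were called without #3 in place of 2072, and without #2, 2472 were lower and 3100 higher. Uqcrb was the gene that still passed without #3 (edgeR adjusted p 0.0419), and Ndufb3 and Atp5me also missed the threshold without #1 (0.0508 and 0.0594). Scaled to the mitochondrial protein-coding counts, 1 of the 80 subunits was lower and 9 were higher, beside 232 and 4122 of all 15028 genes tested.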

How the data were processed

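Poly(A) RNA of 1 WT culture and 3 Thop1-KO subclones was sequenced after preparation with the NEBNext Ultra RNA kit. The authors deposited raw counts per gene and FPKM values, made after noise and adaptors were removed with the FASTX toolkit. The submitters' processing notes name HISAT2 2.0.5 and featureCounts 1.5.0-p3, with no role. The genome build, annotation version and strand setting are not given in the sources used here, so coordinates are those of the deposited annotation. Reads that map to several places or overlapping genes can be lost or split, which bears on the compact mitochondrial genome and its nuclear copies.

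Thop1-KO was compared with WT on the counts in R 4.3.3 with edgeR 4.0.16 (filterByExpr with a minimum count of 10, TMM, glmQLFit and glmQLFTest, Benjamini-Hochberg adjustment over 15028 genes). CPM values are TMM-normalised. The deposited FPKM values were used only for levels per length and in limma. Members were all genes on chromosome MT. The members, lists and tests were chosen with earlier results of these data known. Named genes were all mitochondrial protein-coding and rRNA genes, the tRNA genes tested, Polrmt, Tfam, Tfb2m, Lrpprc, Ppargc1b, up to 10 called genes of the nuclear lists and up to 6 called respiratory subunits by smallest p, and Thop1. Nothing says that the libraries came from replicate cultures of a genotype beyond the separate subclones, so p-values measure only the spread between these libraries. Intervals, and the floor of 3 counts, cover counting error only. The test was checked on simulated counts. Alternatives were other scalings, DESeq2 1.42.0, limma 3.58.1 on log2 FPKM with a pseudocount of 1 or 0.1, other filters, each subclone left out and, added after the data were seen, a gene length offset (loess, span 0.3, fitted on nuclear genes). Dna2, Fastkd5, Trmt61b, Zfp42 and Col1a2 were not analysed here. No sequence is printed.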

Additional observations from a re-analysis of the deposited data

How the results depend on the processing

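Of 593 values of named genes under the alternatives, 477 kept their direction and their side of the threshold, 80 kept the direction but were no longer called, 25 were newly called and 11 changed sign. Mt-co2, Mt-atp8 and Hsd17b10 were called under all 14 alternatives. Scaling to the mitochondrial protein-coding counts, which sets that sum equal in all libraries, moved the median log2 fold change of all genes by 0.73, to 0.78, and that of the 13 genes to -0.71. Relative to all genes, the median of the 13 was -1.49 under both this scaling and the one reported. A change of scaling alone shifts all genes nearly alike, so this relative median could hardly change. No filter on low counts moved the median of all genes by 0.14 and the gene length offset by -0.15, with relative medians of -1.61 and -1.20. Scaling to the mitochondrial protein-coding counts gave 4354 calls over all genes (4122 higher and 232 lower, against 1295 and 777), 4 of the protein-coding and 3 of the tRNA genes, and turned Mt-nd1 to 0.0026, Mt-cyb to 0.048, Mt-co1 to 0.59, AY172581.24 to 0.52, AY172581.18 to 0.25, AY172581.10 to 0.085 and Tfam to 0.38. With limma on log2(FPKM + 0.1), 1378 genes, 2 protein-coding genes, 3 maintenance genes and 0 respiratory subunits were called, and AY172581.9 was at -0.0083. With limma on log2(FPKM + 1), 4 tRNA genes and 2 respiratory subunits were called, and AY172581.9 was at -0.0077. DESeq2 called 0 tRNA genes, 14 maintenance genes and 13 respiratory subunits, and upper-quartile scaling called 14 respiratory subunits. Without a filter 2 tRNA genes were called, and with at least 10 counts in every library 0. The gene length offset, added after the data were seen, left 4 respiratory subunits called, and split all calls into 1071 higher and 964 lower. Leaving out 1 subclone at a time gave 418 to 5572 calls over all genes, 4 to 12 protein-coding genes, 0 to 2 tRNA genes, 1 to 22 maintenance genes and 1 to 38 respiratory subunits, each lowest without #3 and highest without #2, with log2 fold changes of -0.44 to 0.50 for AY172581.9 and -0.68 to 0.039 for AY172581.24. The ratio of the mitochondrial share in Thop1-KO to that in WT was 0.643 over all counts, 0.636 over annotated genes and 0.626 over protein-coding genes. Of the 22 tRNA genes, 13 had too few counts to test, and the cause was not tested. No paired analysis was possible because WT has a single library with no replicate number.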
